A study of Mus musculus with 19 samples.

Results

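Solute carrier genes were followed through bulk RNA sequencing of regulatory T cells (Tregs) from the lymph nodes of mice with and without a burn injury. Members were the genes of the deposited count table whose symbol starts with SLC, a family number and the letter A, with a mean raw count of at least 10 over the 19 libraries. The glucose transporter genes Slc2a1 and Slc2a3 were left out by name. The pattern matched 348 symbols, 184 of them fell below the mean count (74 had no count in any library), and 162 of the 24982 genes in the table were kept, from 42 SLC families. Members were thus chosen by their mean raw count over all libraries, together with the symbol, so only carriers present at some level in these cells were described. Slc5a10, Slc16a10 and Slc1a4 lay just inside the limit, with mean raw counts of 10.5, 11.1 and 11.9, and Slc4a5, Slc7a4 and Slc41a2 just outside it, with 9.63, 9.53 and 8.84.

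Solute carriers are membrane proteins that move small molecules along or against their gradients, as uniporters, cotransporters or exchangers. They bring amino acids, sugars, vitamins, nucleosides and metal ions into the cell, set pH and cell volume, and, in the mitochondrial SLC25 family, pass ATP, phosphate, coenzymes and carbon skeletons across the inner mitochondrial membrane. Activated T cells are known to need more amino acid uptake and lactate export than resting ones, and the light chain Slc7a5 with its heavy chain Slc3a2 is the textbook example of an uptake route switched on by T cell activation. In Tregs, as in other T cells, the carriers sit upstream of nutrient sensing through mTOR complexes.

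All mice carried the Foxp3DTR allele, in which a diphtheria toxin receptor fused to GFP is made by cells that express Foxp3, and all samples were CD4+FoxP3-GFP+ cells. Lymph nodes draining the injury site (axillary, brachial and inguinal) were taken 7 days after burn injury or from sham-treated, uninjured mice, and cells were sorted into CD44high Tregs (effector or memory phenotype) and CD44low Tregs (resting phenotype), with RNA from 50000 cells per sample. The 4 groups held 4 libraries of CD44high and 5 of CD44low Tregs from uninjured mice, and 4 of CD44high and 6 of CD44low Tregs from injured mice. In injured CD44low Tregs, 3 of the 6 libraries carried a second number in their label (1_2, 4_2 and 5_2), and the labels did not say what it stands for, so the tests that use this group were also run without these 3 libraries and with them alone. Calls lost in these fits are named beside the result, the values of Slc7a5 and Slc22a5 are also given by set, and values with no such remark are pooled over both sets. The labels did not say which samples came from separate or pooled mice, so p-values measure the spread between these samples, which may be partly technical. Ages, and the toxin, if any, given to these mice, were not part of the labels.

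Library totals ran from 5582234 to 9433610 counts, and no pair of libraries within a group agreed within sampling noise. The sort was visible in the RNA: Cd44 stood at 595 ± 37.5 CPM (library-scaled counts; SD, n = 4) in CD44high and 133 ± 16.1 (n = 5) in CD44low Tregs of uninjured mice. Foxp3 and Cd4 were present in all groups. All 8 genes of a list for dividing cells were higher in CD44high Tregs in both uninjured and injured mice, with summed levels of 837 to 1083 CPM against 180 to 211 in uninjured mice and 686 to 762 against 202 to 244 in injured mice. Of 8 macrophage and dendritic cell genes, 7 were higher in CD44high Tregs of uninjured mice and 1 in injured mice. Their summed level was 75.8 to 158 CPM in CD44high and 23.1 to 41.6 in CD44low Tregs of uninjured mice, and 93.6 to 255 and 36.03 to 166 CPM in injured mice. The part of dividing or other cells in the results below was not tested except where a value is given, and in bulk samples fewer cells of a type and less RNA per cell cannot be told apart.

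The SLC repertoire itself was led by few genes. Taken per kilobase of exon, so that genes can be set beside each other, the highest carrier protein gene in every group was Slc25a5, an ADP/ATP carrier of the inner mitochondrial membrane, at 332 CPM per kilobase in CD44high and 279 in CD44low Tregs of uninjured mice, against a median of 5.54 and 5.28 over the 162 members. Slc9a3r1, which carries an SLC symbol but encodes a scaffold protein, reached 402 and 327 CPM per kilobase in the same groups. In CD44high Tregs of uninjured mice the next places were taken by Slc25a4, the other abundant ADP/ATP carrier (105 CPM per kilobase), Slc25a11, the oxoglutarate carrier (82.0), the glutamine transporter Slc1a5 (79.8) and the heavy chain Slc3a2 (70.7). In CD44low Tregs of uninjured mice the place after Slc25a5 went to Slc44a2, a choline transporter-like protein, at 91.7 CPM per kilobase. ADP/ATP carriers have processed copies elsewhere in the genome that could take some of their reads, so their levels are less certain than those of other members.

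The first comparison asked how CD44high differed from CD44low Tregs in uninjured mice. All 162 members were among the 11464 genes tested with edgeR's quasi-likelihood F-test, and p-values were adjusted across all of these genes by the method of Benjamini and Hochberg. At this test 49 members were higher in CD44high Tregs and 29 lower (adjusted p under 0.05). That was 30.2% and 17.9% of the members, where 24.7% and 21.3% of all genes tested were called, so the share called in either direction was near the background. At the stricter limit of an unadjusted p under 1e-06 with at least a 2-fold change, 15 members were higher and 2 lower (6.24% and 2.06% of all genes). The median log2 fold change was 0.04 over the members and 0.01 over all genes tested. In injured mice 44 members were higher and 30 lower (27.2% and 18.5%, with 20.1% and 17.2% of all genes). At the stricter limit 13 were higher and 3 lower (4.52% and 1.48% of all genes). Without the 3 injured CD44low libraries with a second number the counts at the adjusted p were 37 and 23, with the share of all genes not counted. Of the 49 members higher in uninjured mice, 38 were also called higher in injured mice, and of the 29 lower ones 19 were called lower. No member was called in opposite directions. How often calls recurred over all genes was not counted, so the recurrence is not shown to be particular to the members. Whether the difference between the subsets changed with injury was tested last, and only Slc52a3 and Slc15a3 passed. The heat map of 56 of the members called in the same direction in both states shows their levels in each sample.

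**Figure D1:**
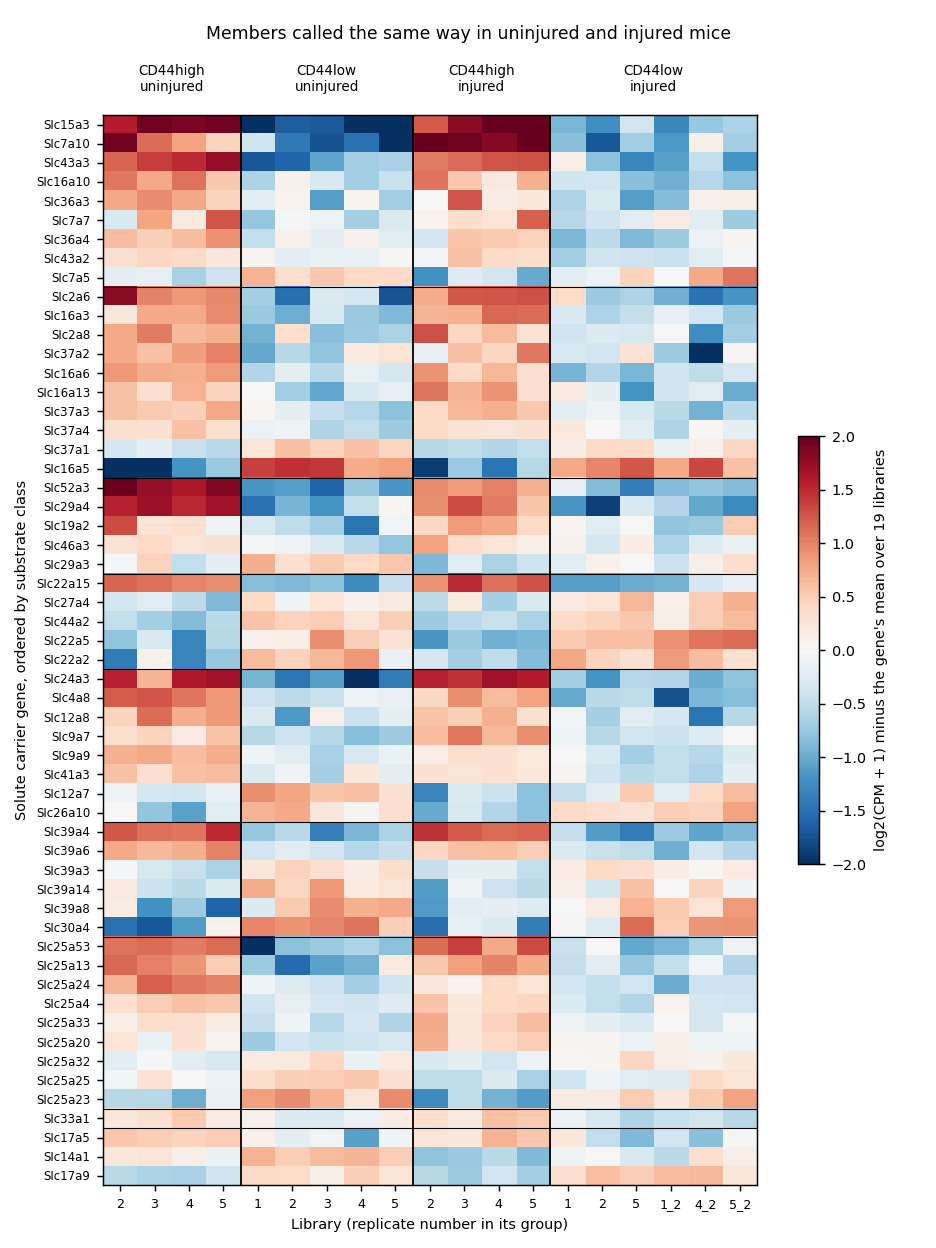
Heat map of 56 solute carrier genes called in the same direction in uninjured and injured mice (37 higher and 19 lower in CD44high Tregs). Columns are the 19 libraries by group, rows are genes by substrate class (lines), and colour is log2(CPM + 1) minus the gene's mean over all libraries, cut at 2 in both directions. The contrast of CD44high and CD44low libraries in uninjured as in injured mice follows from the choice of genes.

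The substrate classes did not move as blocks. Of the 26 carriers of amino acids, their derivatives and peptides, 10 were higher and 3 lower in CD44high Tregs of uninjured mice (38.5% and 11.5%), with a median log2 fold change of 0.24. Over all genes tested the shares were 24.7% and 21.3%. Sugars and organic acids had 9 higher and 3 lower of 18 (50% and 16.7%, median 0.54). Nucleosides and vitamins had 5 and 2 of 12 (41.7% and 16.7%, median 0.40), and mitochondrial carriers 11 and 6 of 37 (29.7% and 16.2%, median 0.09). Inorganic ions had 6 higher and 4 lower of 25 (24% and 16%, median -0.02). Metals and heme had 2 and 4 of 21 (9.52% and 19%, median -0.02), and lipids, choline and organic ions 3 and 4 of 9 (33.3% and 44.4%, median -0.27). In injured mice the shares over all genes were 20.1% and 17.2%. The counts there were 10 and 2 for amino acids (38.5% and 7.69%) and 9 and 3 for sugars and organic acids (50% and 16.7%). They were 4 and 2 for nucleosides and vitamins (33.3% and 16.7%) and 8 and 6 for mitochondrial carriers (21.6% and 16.2%). Ions had 7 and 2 (28% and 8%), metals and heme 2 and 7 (9.52% and 33.3%), and lipids and choline 1 and 4 (11.1% and 44.4%). Classes were assigned by family number.

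**Figure D2:**
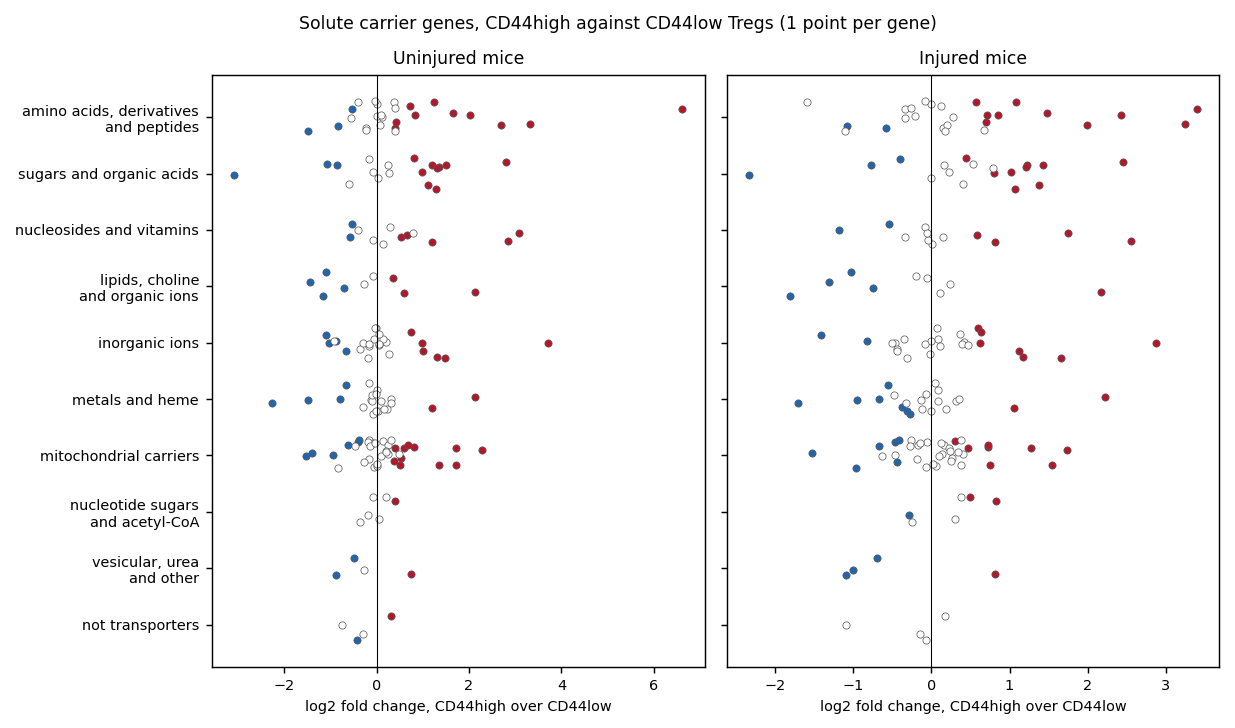
Log2 fold change of CD44high over CD44low Tregs for each of the 162 members by substrate class, in uninjured (left) and injured mice (right); red points were called higher, blue points lower, and open points were not called at an adjusted p under 0.05. Most classes hold red and blue points. Among sugars and organic acids 9 of 18 are red in each panel (50%, with 24.7% and 20.1% of all genes tested).

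Among amino acid and peptide carriers the separation of the subsets was widest for Slc15a3, a lysosomal transporter of histidine and small peptides best known from macrophages and dendritic cells. In CD44high Tregs of uninjured mice its 4 libraries stood at 11.2, 14.8, 14.2 and 14.7 CPM, while the 5 CD44low libraries had 0, 2, 2, 0 and 0 counts, a mean of 0.120 CPM. Every CD44high library was above every CD44low one. From the 355 and 4 counts of the groups the ratio was 113, with a 95% exact interval of 43.8 to 417 that covers counting error only. The fitted log2 fold change of 6.62 ± 0.50 (SE, adjusted p = 1.26e-10 by edgeR) depends on the prior count. In injured mice Slc15a3 stood at 8.63, 13.3, 15.7 and 18.2 CPM in CD44high Tregs and at 0.690 to 2.14 (median 1.31) in the 6 CD44low libraries, a ratio of 10.7 by counts (8.06 to 14.6). Lyz2, from the list of macrophage and dendritic cell genes, stood at 75.2 ± 32.1 and 22.5 ± 6.62 CPM in CD44high and CD44low Tregs of uninjured mice. In injured mice Lyz2 stood at 119 ± 56.1 and 54.2 ± 34.99 CPM. Slc15a3 also shares exon sequence with Tmem132a on the other strand, and strand was not stated to be used in counting. Tmem132a had 1 to 12 counts in CD44high and 0 to 4 in CD44low libraries of uninjured mice. In injured mice it had 3 to 28 and 0 to 9 counts. Whether its reads entered the counts of Slc15a3 was not tested.

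Other genes of this class that were higher in CD44high Tregs included Slc43a3, placed here by its family number although it is known for purine uptake, which stood at 35.8, 41.9, 45.2 and 54.4 CPM against 4.06, 4.41, 6.96, 9.20 and 9.45 in uninjured mice. The groups did not overlap, and the log2 fold change was 2.70 ± 0.28 (adjusted p = 2.52e-08 by edgeR), with 1.99 ± 0.25 in injured mice (adjusted p = 1.04e-06). Slc1a5, the sodium-dependent glutamine exchanger, was at 333 ± 49.3 CPM in CD44high and 201 ± 31.6 in CD44low Tregs of uninjured mice (log2 fold change 0.73 ± 0.12), and the libraries did not overlap. In injured mice the difference was 0.13 ± 0.12 and did not pass the test. Slc43a2, a uniporter for branched and aromatic amino acids, was higher in both (0.41 ± 0.13 and 0.70 ± 0.12).

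The heterodimer of Slc7a5 and Slc3a2, which together form CD98, did not move together. Slc7a5, the light chain that exchanges glutamine for leucine and other large neutral amino acids, stood at 55.3, 56.6, 40.2 and 47.3 CPM in CD44high Tregs of uninjured mice and at 103, 79.7, 92.7, 84.4 and 83.6 CPM in CD44low Tregs. All CD44low libraries were above all CD44high ones, and the log2 fold change was -0.83 ± 0.23 (adjusted p = 0.0053 by edgeR). In injured mice Slc7a5 was at 26.96, 53.2, 48.5 and 31.2 CPM in CD44high and at 54.9 to 135 (median 75.1) in CD44low Tregs (-1.07 ± 0.23, adjusted p = 0.00060). The CD44low libraries numbered 1, 2 and 5 were at 66.7 ± 17.3 CPM and those with a second number at 102 ± 36.05 CPM, and the log2 fold change of Slc7a5 was -0.73 without the latter and -1.38 with them alone, called in both. Slc3a2, the heavy chain that carries several light chains to the surface, was higher in CD44high Tregs of uninjured mice at 250 ± 21.4 against 191 ± 23.2 CPM (log2 fold change 0.39 ± 0.13, adjusted p = 0.016), a call lost without CD44high library 2 or 3 (adjusted p up to 0.055). In injured mice the log2 difference of Slc3a2 was 0.15 ± 0.12 and was not called.

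Slc38a2, a sodium-coupled transporter of small neutral amino acids that rises when amino acids are short, was also lower in CD44high Tregs of uninjured mice (183 ± 19.2 against 265 ± 37.4 CPM, log2 fold change -0.53 ± 0.15, adjusted p = 0.0059). In injured mice the log2 difference of Slc38a2 was -0.33 and was not called (adjusted p = 0.076 by edgeR). The cationic amino acid transporter Slc7a1 was lower in CD44high Tregs of injured mice (24.4 ± 1.67 against 36.6 ± 7.71 CPM, log2 fold change -0.58 ± 0.16, adjusted p = 0.0047). This call was lost without the second-number libraries (adjusted p = 0.093). In uninjured mice the log2 difference of Slc7a1 was -0.24 and was not called (adjusted p = 0.23 by edgeR). Slc38a1, Slc7a6 and Slc38a10 differed between subsets by no more than 0.28 on the log2 scale in either state, and none was called. Of 23 genes of amino acid stress response, serine synthesis and transamination, 22 were tested, and 11 were higher and 3 lower in CD44high Tregs of uninjured mice (50% and 13.6%, with 24.7% and 21.3% of all genes). Asparagine synthetase, Asns, stood at 16.4 ± 2.04 against 1.58 ± 0.84 CPM, and the serine synthesis genes Psat1 and Phgdh at 168 ± 15.6 against 61.5 ± 6.22 and 224 ± 6.56 against 122 ± 8.30 CPM. Trib3 and Ddit3 were among the 3 lower ones. In injured mice 10 of the 22 were higher and 6 lower (45.5% and 27.3%, with 20.1% and 17.2% of all genes). The list and its members were named with values known.

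**Figure D3:**
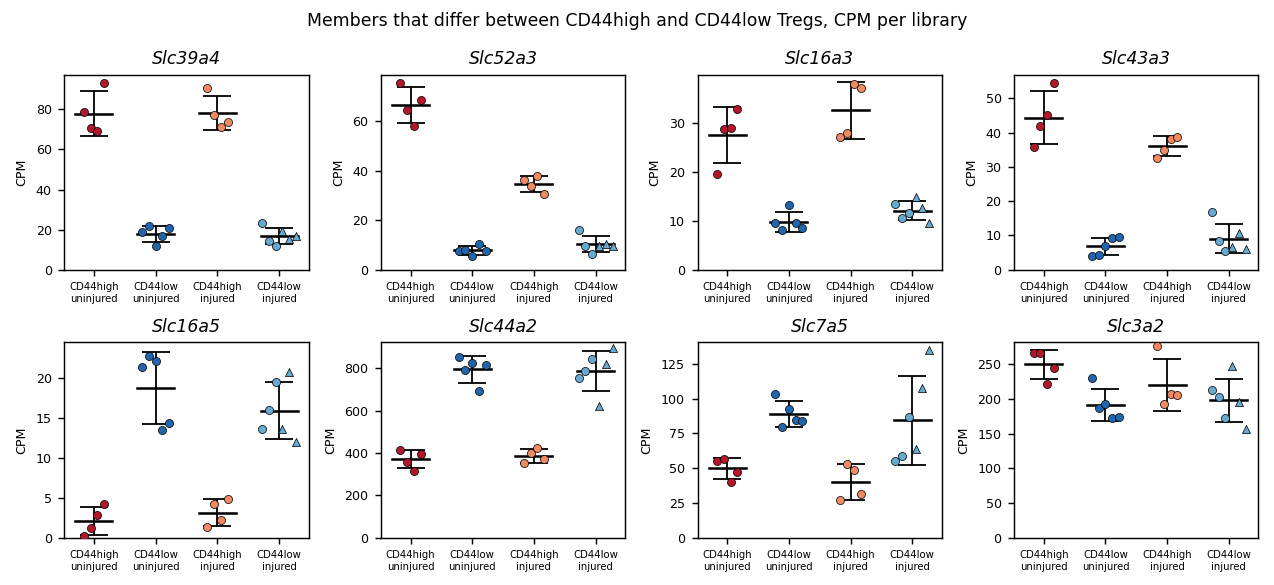
CPM per library for 8 solute carrier genes that differed between the subsets; circles are libraries, triangles the injured CD44low libraries with a second number, bars the mean and whiskers 1 SD (n = 4, 5, 4 and 6). Slc39a4, Slc52a3, Slc16a3 and Slc43a3 are higher and Slc16a5, Slc44a2 and Slc7a5 lower in CD44high Tregs, while Slc3a2 is higher in uninjured mice only at an adjusted p under 0.05.

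The SLC16 family of monocarboxylate carriers split sharply. Slc16a3, a lactate exporter of glycolytic cells, stood at 19.6, 28.8, 29.02 and 32.9 CPM in CD44high and 9.54, 8.04, 13.2, 9.63 and 8.61 CPM in CD44low Tregs of uninjured mice. The groups did not overlap in uninjured or in injured mice (log2 fold changes 1.49 ± 0.19 and 1.43 ± 0.18, adjusted p = 7.81e-07 and 6.39e-07 by edgeR). Slc16a6, known to export ketone bodies, went the same way (1.19 ± 0.16 and 1.23 ± 0.16), with the reservation that its exons overlap those of Amz2 on the other strand. Amz2 was at 30.3 ± 4.26 and 24.3 ± 2.42 CPM and was not called. Slc16a1, the broadly expressed lactate and pyruvate carrier, was at 80.5 ± 6.57 and 67.6 ± 10.7 CPM and was not called (log2 difference 0.25 ± 0.14).

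Slc16a5 went the opposite way to its relatives. Its 4 CD44high libraries of uninjured mice stood at 0.178, 1.19, 2.84 and 4.18 CPM and its 5 CD44low libraries at 21.4, 22.8, 22.1, 13.5 and 14.3 CPM. The log2 fold change was -3.09 ± 0.43 (adjusted p = 2.79e-06 by edgeR), and in injured mice it was -2.33 ± 0.39 (adjusted p = 4.64e-05), the lowest value of any member in either state. Of the 4 genes listed as partners of these carriers, the chaperones Bsg and Emb and the lactate dehydrogenase gene Ldha were higher and Ldhb lower in CD44high Tregs in both states. Those were 75% and 25% of the list, with 24.7% and 21.3% of all genes in uninjured and 20.1% and 17.2% in injured mice. Ldha was at 1643 ± 27.3 and 1159 ± 84.3 CPM, Emb at 306 ± 9.12 and 165 ± 15.95, and Ldhb at 43.8 ± 3.86 and 72.8 ± 10.2 CPM in CD44high and CD44low Tregs of uninjured mice.

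In the SLC37 family of sugar phosphate exchangers, Slc37a2, Slc37a3 and Slc37a4, the glucose 6-phosphate transporter of the endoplasmic reticulum, were higher in CD44high Tregs and Slc37a1 was lower. Slc37a1 stood at 34.8 ± 3.63 and 63.4 ± 5.73 CPM in uninjured mice (log2 fold change -0.87 ± 0.13, adjusted p = 7.10e-06). Slc37a2, Slc37a3 and Slc37a4 were named after their values were seen. Their log2 fold changes were 1.28 ± 0.43, 0.98 ± 0.17 and 0.80 ± 0.18.

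Vitamin and nucleoside carriers included Slc52a3, the member of smallest adjusted p in uninjured mice. It takes up riboflavin, the precursor of FAD, and Slc52a3 stood at 75.4, 64.6, 58.0 and 68.6 CPM in CD44high and 7.66, 8.04, 5.39, 10.5 and 7.60 CPM in CD44low Tregs of uninjured mice. The lowest CD44high library was more than 5-fold above the highest CD44low one, and the log2 fold change was 3.09 ± 0.20 (adjusted p = 1.19e-11 by edgeR). Its relative Slc52a2, also named after its value was seen, was at 54.1 ± 4.99 and 56.9 ± 11.9 CPM and was not called. Slc29a1, an equilibrative nucleoside transporter, was higher in CD44high Tregs of uninjured mice (199 ± 20.4 against 139 ± 13.3 CPM, log2 fold change 0.52 ± 0.12) and differed by 0.15 ± 0.11 in injured mice, which was not called. The folate carrier Slc19a1 did not pass the test in either state (0.14 ± 0.11 and 0.00 ± 0.10).

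Among carriers of lipids, choline and organic ions, 4 of 9 were lower in CD44high Tregs in both states. That was 44.4%, with 21.3% of all genes lower in uninjured and 17.2% in injured mice. Slc44a2, a choline transporter-like protein, stood at 412, 359, 316 and 396 CPM in CD44high and at 856, 793, 823, 691 and 815 CPM in CD44low Tregs of uninjured mice. The 2 groups lay far apart in uninjured mice (log2 fold change -1.10 ± 0.11, adjusted p = 1.06e-08 by edgeR) and in injured mice (-1.03 ± 0.10, adjusted p = 2.84e-08). Slc22a5, the carnitine importer that supplies fatty acid oxidation, was at 20.1 ± 5.76 against 45.1 ± 11.9 CPM in uninjured mice (-1.16 ± 0.20) and at 16.9 ± 2.16 against 59.7 ± 10.9 CPM in injured mice (-1.81 ± 0.20). The injured CD44low libraries numbered 1, 2 and 5 were at 48.2 to 51.4 CPM for Slc22a5 and those with a second number at 63.6 to 73.2 CPM, without overlap. The log2 fold change was -1.57 without the second-number libraries and -2.05 with them alone, called in both. Its family member Slc22a15, in contrast, was higher in CD44high Tregs (16.7 ± 1.30 against 3.81 ± 0.94 CPM, 2.13 ± 0.25). Summed over the 9 genes of the class, levels were 567 ± 61.1 CPM in CD44high and 1005 ± 68.5 in CD44low Tregs of uninjured mice, mainly through Slc44a2.

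Ion carriers held calls in both directions. The organelle sodium/proton exchangers Slc9a7 and Slc9a9 (the latter named after its value was seen) were higher in CD44high Tregs, and Slc9a7 stood at 93.0 ± 11.6 and 46.2 ± 5.31 CPM in uninjured mice (log2 fold change 1.01 ± 0.13, adjusted p = 1.46e-06 by edgeR). Slc24a3, a potassium-dependent sodium/calcium exchanger, stood at 13.4, 6.78, 13.8 and 14.6 CPM against 1.56, 0.788, 1.28, 0.144 and 0.844 CPM (3.70 ± 0.36, adjusted p = 1.17e-08). No CD44low library reached the lowest CD44high one. Slc12a7, a potassium/chloride cotransporter that lowers cell volume, was at 108 ± 10.9 against 200 ± 32.6 CPM in uninjured mice (-0.88 ± 0.21) and at 79.7 ± 23.8 against 142 ± 45.2 CPM in injured mice (-0.83 ± 0.21). The inward sodium/potassium/chloride cotransporter Slc12a2 was called lower in uninjured mice (-0.66 ± 0.25, adjusted p = 0.033), but the call was lost in 6 of 17 alternative settings. The carriers Slc4a7 and Slc20a1 did not pass the test in either state.

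Slc26a10 was called lower in CD44high Tregs in both states (2.81 ± 1.27 against 6.07 ± 1.47 CPM in uninjured mice). Its exons overlap those of B4galnt1 on the other strand, which stood at 462 ± 37.6 and 952 ± 29.2 CPM and had a log2 fold change of -1.04, so reads of the 2 genes cannot be told apart. Among 19 pump and channel genes, 5 were higher and 3 lower in CD44high Tregs of uninjured mice (26.3% and 15.8%, near the 24.7% and 21.3% of all genes). Atp1b1, a beta subunit of the sodium pump, was at 11.03 ± 3.99 against 78.3 ± 4.19 CPM, while the potassium channel gene Kcna3 was at 286 ± 42.9 against 100.1 ± 11.7 and the calcium pump gene Atp2b4 at 23.4 ± 1.99 against 4.42 ± 1.85 CPM.

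Zinc carriers differed gene by gene. Slc39a4, a zinc importer of the plasma membrane, stood at 78.4, 70.9, 69.1 and 93.3 CPM in CD44high and 18.8, 21.9, 11.9, 16.7 and 20.6 CPM in CD44low Tregs of uninjured mice. CD44high libraries were at 71.3 to 90.4 CPM in injured mice too, against 11.8 to 23.2 in CD44low Tregs. The log2 fold changes were 2.12 ± 0.18 and 2.22 ± 0.17 (adjusted p = 8.66e-10 and 2.23e-10 by edgeR). Slc39a6 was higher in both states as well (1.20 ± 0.12 and 1.06 ± 0.12). Slc39a3 was lower (32.5 ± 5.86 against 51.5 ± 4.42 CPM, -0.67 ± 0.13), and Slc39a10 did not pass the test (-0.13 ± 0.18). Of the 11 members of this importer family, 2 were higher and 3 lower in uninjured mice (18.2% and 27.3%, with 24.7% and 21.3% of all genes), and 2 higher and 5 lower in injured mice (18.2% and 45.5%, with 20.1% and 17.2%). The exporters of the SLC30 family had no gene called higher. Of its 6 members 1 was called lower in uninjured and 2 in injured mice, with 21.3% and 17.2% of all genes. Slc30a1 and Slc30a7 differed by no more than 0.07 on the log2 scale in either state. The iron importer Slc11a2 was not called in either state (-0.10 ± 0.17 and 0.08 ± 0.16). Of the 10 metal handling genes, 8 were tested. In uninjured mice 2 were higher and 0 lower (25% and 0%, with 24.7% and 21.3% of all genes). In injured mice 3 were higher and 0 lower (37.5% and 0%, with 20.1% and 17.2% of all genes). The metallothionein gene Mt1, which binds zinc and copper, was higher in CD44high Tregs, at 10.5 ± 3.07 against 0.205 ± 0.241 CPM in uninjured mice, and Hmox1 at 7.93 ± 1.62 against 3.17 ± 2.07 CPM.

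The mitochondrial carriers made up the largest family, with 37 members. The calcium-dependent ATP-magnesium/phosphate carriers went in opposite directions: Slc25a24 was at 135 ± 19.8 against 53.1 ± 8.13 CPM (1.35 ± 0.14) and its relative Slc25a23 at 5.79 ± 1.59 against 15.5 ± 3.02 CPM (-1.41 ± 0.25). Slc25a42, a carrier of coenzyme A, was lower in uninjured mice (-1.53 ± 0.35) and not called in injured mice (-0.63 ± 0.32).

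Of the ADP/ATP carriers, Slc25a4 was higher in CD44high Tregs (248 ± 18.3 against 142 ± 9.74 CPM in uninjured mice, log2 fold change 0.80 ± 0.11, adjusted p = 4.17e-06). Slc25a5 differed by 0.25 ± 0.11 and did not pass the test, although its libraries did not overlap. The phosphate carrier Slc25a3 differed by 0.14 ± 0.11 in uninjured mice and was called in injured mice (0.31 ± 0.11, adjusted p = 0.030), a call lost in 9 of 18 alternative settings, among them with the second-number libraries alone (0.16, adjusted p = 0.33). The citrate carrier Slc25a1 was called in uninjured mice (0.37 ± 0.14, adjusted p = 0.030), a call lost in 7 of 17. The mitochondrial iron importer Slc25a37 was at 5.36 ± 2.75 against 9.84 ± 3.40 CPM and was called lower only in injured mice (-0.97 ± 0.36, adjusted p = 0.039), a call lost in 6 of 18, among them without the second-number libraries (-0.57, adjusted p = 0.32). Summed over the class, mitochondrial carriers were at 2576 ± 53.9 CPM in CD44high and 2065 ± 107 in CD44low Tregs of uninjured mice, while injured mice had 2543 ± 201 and 2129 ± 141 CPM. Among 11 genes of mitochondrial import and pores, 3 were higher and 1 lower in uninjured mice (27.3% and 9.09%, with 24.7% and 21.3% of all genes) and 5 were higher in injured mice (45.5%, with 20.1% of all genes).

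The carriers of the remaining classes were fewer. Slc17a9, which loads ATP into vesicles, was at 37.4 ± 3.18 against 69.6 ± 6.62 CPM in uninjured mice (log2 fold change -0.89 ± 0.12, adjusted p = 2.49e-06) and at 36.6 ± 4.21 against 78.5 ± 9.20 CPM in injured mice (-1.10 ± 0.12, adjusted p = 9.17e-08). Slc35a1, the Golgi CMP-sialic acid transporter, differed by 0.21 ± 0.18 in uninjured mice and was called in injured mice (0.50 ± 0.17, adjusted p = 0.024), a call lost in 6 of 18 alternative settings, among them without the second-number libraries (0.26, adjusted p = 0.18).

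The next comparisons asked what burn injury changed within each subset after 7 days, and few members passed. In CD44high Tregs no member was higher by edgeR's test and 4 were lower in injured mice (2.47% of members, where 1.33% of all genes were called lower and 1.06% higher). At an unadjusted p under 0.05, 6 members were higher and 14 lower, and DESeq2 called 3 and 7. The shares of all genes at that unadjusted limit and by DESeq2 were not counted. At the stricter limit there was no member in either direction here (0.122% of all genes higher and 0.0262% lower), in CD44low Tregs (0.0872% and 0.0349%) or in the test of the difference described last (0.0349% and 0.0523%). In CD44low Tregs 3 members were higher and 6 lower (1.85% and 3.70%, with 4.24% and 3.36% of all genes called). Those shares were close to the background or below it. Without the second-number libraries 5 members were called higher and 13 lower in CD44low Tregs, and with the second-number libraries alone 2 and 3. The shares of all genes were not counted in these fits, so these counts cannot be set against a background. Of the 9 calls in the fit of all 19 libraries, 7 recurred without the second-number libraries and 3 with them alone.

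**Figure D4:**
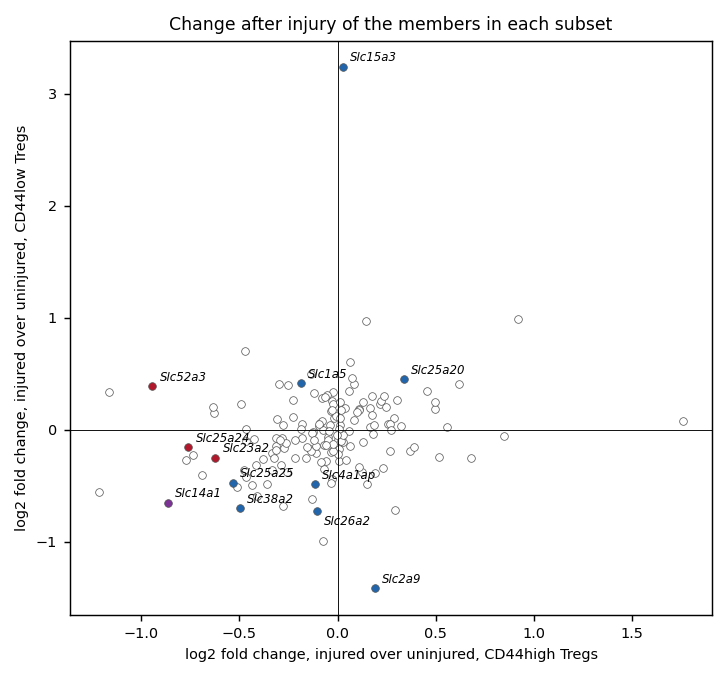
Log2 fold change of injured over uninjured mice for the 162 members in CD44high (horizontal) and CD44low Tregs (vertical); red points were called in CD44high Tregs, blue points in CD44low Tregs and the purple point, Slc14a1, in both. Slc15a3 stands apart at 3.24 in CD44low and 0.03 in CD44high Tregs, and Slc52a3 at -0.94 in CD44high and 0.39 in CD44low Tregs.

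Slc14a1, a urea transporter, was the member that fell in both subsets. In CD44high Tregs it stood at 141, 145, 132 and 111 CPM in uninjured mice and at 69.0, 72.3, 83.8 and 65.4 CPM in injured mice, with no overlap. In CD44low Tregs it stood at 197, 172, 190.2, 195 and 171 CPM in uninjured mice and at 83.3 to 154 CPM (median 119) in injured mice, again with no overlap. The log2 fold changes were -0.86 ± 0.15 (adjusted p = 0.0014 by edgeR) and -0.65 ± 0.12 (adjusted p = 0.0033). Both held in all alternative settings apart from the call rule of p under 1e-06 with a 2-fold change. Within CD44low Tregs the value was -0.73 without the second-number libraries and -0.56 with them alone. The difference between the subsets in this effect was -0.21 ± 0.19 and did not pass the test (adjusted p = 0.76).

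In CD44high Tregs the other members that fell were Slc52a3, Slc25a24 and Slc23a2. Slc52a3, the riboflavin carrier, went from 75.4, 64.6, 58.0 and 68.6 CPM to 36.1, 33.9, 37.8 and 30.8 CPM, a log2 fold change of -0.94 ± 0.20 (adjusted p = 0.0075 by edgeR). Slc25a24 went from 109, 156, 142 and 135 CPM to 79.3, 71.2, 88.2 and 81.3 CPM (-0.76 ± 0.15, adjusted p = 0.0040). Both kept higher levels in CD44high than in CD44low Tregs after injury. Slc23a2, a sodium-dependent vitamin C transporter, went from 114, 88.7, 81.4 and 88.0 CPM to 52.1, 64.5, 66.9 and 57.6 CPM (-0.62 ± 0.14, adjusted p = 0.019). No injured library of these 3 genes reached the lowest uninjured one. In CD44low Tregs Slc25a24 changed by -0.15 and Slc23a2 by -0.25, neither of them called (adjusted p = 0.47 and 0.20 by edgeR). Their differences between the subsets in this effect were -0.61 and -0.37 and did not pass the test (adjusted p = 0.17 and 0.49). That of Slc25a24 was called without the second-number libraries (adjusted p = 0.045). The call of Slc23a2 was lost without uninjured library 2, injured library 2 or injured library 5 of the CD44high group (adjusted p up to 0.11).

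In CD44low Tregs Slc38a2 stood at 322, 216, 264, 262 and 261 CPM in uninjured mice and at 120.1 to 209 CPM (median 156) in injured mice. The groups did not overlap, and the log2 fold change was -0.70 ± 0.14 (adjusted p = 0.0036 by edgeR). With the second-number libraries alone it was -0.59 (adjusted p = 0.059) and without them -0.79 (adjusted p = 0.0011). In CD44high Tregs it was -0.50 ± 0.16 and did not pass the test (adjusted p = 0.11), but it was called without the second-number libraries (adjusted p = 0.031 by edgeR). The difference between the subsets in this effect was 0.20 and was not called (adjusted p = 0.80). Slc26a2, a sulfate transporter named after its value was seen, fell by 0.72 on the log2 scale in CD44low Tregs (adjusted p = 0.011), but its libraries overlapped and it was not called with the second-number libraries alone (adjusted p = 0.077).

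Slc2a9, a urate transporter of the glucose transporter family, was at 8.44, 11.7, 14.3, 6.32 and 12.3 CPM in CD44low Tregs of uninjured mice and at 1.71 to 6.29 CPM (median 4.12) in injured mice. The log2 fold change was -1.42 ± 0.29 (adjusted p = 0.0065 by edgeR). The 2 sets of injured libraries differed here: the libraries numbered 1, 2 and 5 were at 1.71 to 3.42 CPM and those with a second number at 4.83 to 6.29 CPM, without overlap. The value was -2.13 without the second-number libraries (adjusted p = 0.00036) and -0.89 with them alone (adjusted p = 0.081). In CD44high Tregs Slc2a9 was at 5.06 ± 0.88 and 5.74 ± 0.51 CPM and was not called.

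Upstream sequence is shown for 4 of the members that fell, Slc25a24 and Slc23a2 in CD44high and Slc38a2 and Slc2a9 in CD44low Tregs, so that genes that moved the same way can be set side by side. The 250 bases before the RefSeq start were taken on build GRCm38.p6, 5′ to 3′ on the gene's strand. Capitals mark a GC box (GGGCGG) or an AP-1 element (TGANTCA), searched on both strands. The CCAAT box, spelled as its name, was searched too, and so were the E-box (CACGTG), the cyclic AMP response element (TGACGTCA), a C/EBP-ATF element (TGATGNAA) and an ETS element (CCGGAAG), with no match in the windows printed. The windows lie at chr3:109122899-109123148 (+) for Slc25a24, chr2:132145109-132145358 (-) for Slc23a2, where 2 starts are listed and the one nearer the gene body is shown, chr15:96699729-96699978 (-) for Slc38a2 and chr5:38483386-38483635 (-) for Slc2a9.
Slc25a24: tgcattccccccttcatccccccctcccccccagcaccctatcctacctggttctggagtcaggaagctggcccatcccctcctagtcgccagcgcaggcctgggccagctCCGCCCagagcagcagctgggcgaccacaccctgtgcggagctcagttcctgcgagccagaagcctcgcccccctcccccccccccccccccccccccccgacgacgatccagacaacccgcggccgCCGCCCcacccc
Slc23a2: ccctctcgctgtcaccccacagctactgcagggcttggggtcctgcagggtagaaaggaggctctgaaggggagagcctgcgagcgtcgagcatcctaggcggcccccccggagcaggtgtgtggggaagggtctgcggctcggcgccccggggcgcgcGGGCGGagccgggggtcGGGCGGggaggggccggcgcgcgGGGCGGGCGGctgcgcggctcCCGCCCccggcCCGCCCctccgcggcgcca
Slc38a2: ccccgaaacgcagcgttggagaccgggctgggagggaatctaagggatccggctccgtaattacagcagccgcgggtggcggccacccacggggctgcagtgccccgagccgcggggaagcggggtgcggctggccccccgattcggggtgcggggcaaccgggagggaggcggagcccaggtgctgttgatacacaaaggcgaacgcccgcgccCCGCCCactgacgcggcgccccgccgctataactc
Slc2a9: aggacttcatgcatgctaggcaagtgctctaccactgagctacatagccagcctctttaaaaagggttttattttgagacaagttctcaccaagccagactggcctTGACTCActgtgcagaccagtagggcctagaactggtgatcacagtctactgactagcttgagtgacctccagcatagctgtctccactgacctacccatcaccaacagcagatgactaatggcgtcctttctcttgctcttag
GC boxes were found in the first 3 windows and an AP-1 element in the Slc2a9 window. Windows were looked at for 7 of the 12 members called after injury. Slc14a1, Slc26a2 and Slc52a3, which also fell, were not among them. Of the windows looked at for members that fell, not all held a GC box. The other Slc23a2 window held 2 CCAAT boxes and no GC box, and the Slc4a1ap window held none of the motifs. Of the 3 windows of Slc25a25, 1 held no GC box, all held CCAAT boxes and 1 held a cyclic AMP response element. A GC box was present in 32.7% of the 32817 RefSeq windows of this length and in 62.9% of the 167 windows of members, and an AP-1 element in 6.75% and 6.59%. A match is a run of letters and says nothing of binding.

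In the edgeR fit of all 19 libraries, members higher in injured mice were called in CD44low Tregs and none in CD44high Tregs. Slc28a2 and Slc9a7 were at 0.50 and 0.46 on the log2 scale in CD44high Tregs (adjusted p = 0.076 and 0.088), and both were called higher by edgeR with the compared groups alone, without the second-number libraries and with libraries summed. The compared groups alone also called Slc45a4. Slc28a2 and Slc45a4 were named after their values were seen. Slc25a20, the carnitine/acylcarnitine carrier that brings fatty acids into mitochondria, was at 34.7, 43.6, 41.9, 43.5 and 45.9 CPM in uninjured mice and at 53.1 to 63.4 CPM (median 57.0) in injured mice. No library overlapped, and the log2 fold change was 0.45 ± 0.11 (adjusted p = 0.019 by edgeR), not called with the second-number libraries alone (adjusted p = 0.067). With the replicate number as a block, neither Slc25a20 nor Slc1a5 was called. Slc1a5 stood at 253, 205, 180.4, 192 and 173 CPM and at 243 to 301 CPM (median 263), so that 1 uninjured library lay within the injured range. Its log2 fold change was 0.42 ± 0.11 (adjusted p = 0.024), or 0.055 as the adjusted p without the second-number libraries. In CD44high Tregs Slc1a5 changed by -0.19 ± 0.13 and Slc25a20 by 0.34 ± 0.13, neither of them called. The differences between the subsets in this effect were -0.60 and -0.12 and did not pass the test (adjusted p = 0.11 and 0.87 by edgeR). That of Slc1a5 was called in 2 of 26 alternative settings.

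Slc15a3 went from 0, 2, 2, 0 and 0 counts to 8, 6, 15, 4, 8 and 11 counts in CD44low Tregs. The injured libraries were all above the uninjured ones, with a ratio of 10.7 by counts (95% exact interval 3.93 to 40.7, counting error only) and a fitted log2 fold change of 3.24 ± 0.59 (adjusted p = 0.0024 by edgeR). The sums of the macrophage and dendritic cell genes were 23.1 to 41.6 CPM in the uninjured and 36.03 to 166 CPM in the injured CD44low libraries, with Lyz2 called higher after injury (1.27 ± 0.35, adjusted p = 0.030). Tmem132a, which shares exon sequence with Slc15a3, had 0 to 4 counts in the uninjured and 0 to 9 in the injured CD44low libraries. Whether macrophages and dendritic cells or reads of Tmem132a contributed was not tested.

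**Figure D5:**
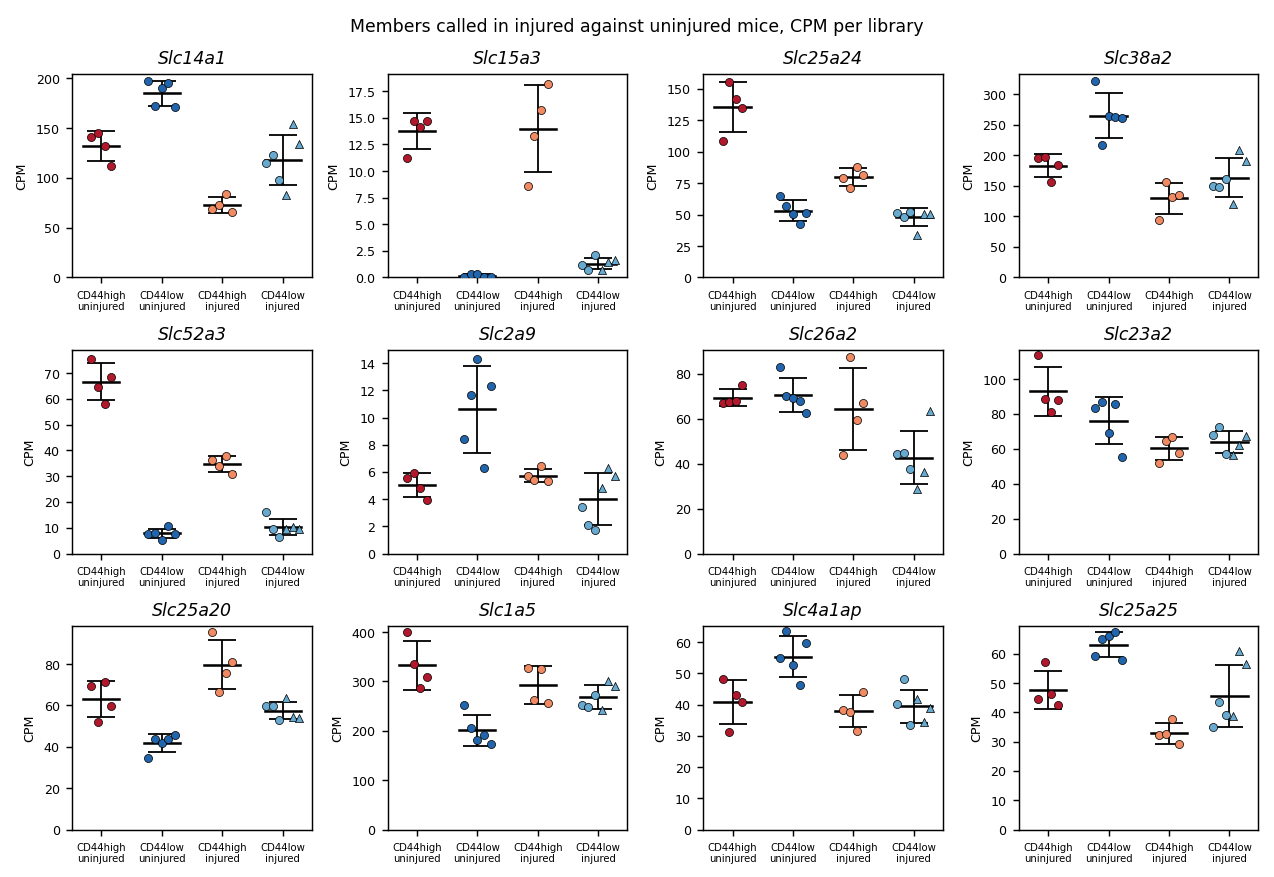
CPM per library of the 12 members called in injured against uninjured mice in either subset; circles are libraries, triangles the injured CD44low libraries with a second number, bars the mean and whiskers 1 SD (n = 4, 5, 4 and 6). Slc14a1 is lower in injured mice in both subsets, Slc52a3, Slc25a24 and Slc23a2 in CD44high Tregs, and Slc25a20, Slc1a5 and Slc15a3 are higher in CD44low Tregs.

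The remaining calls in CD44low Tregs were Slc25a25 and Slc4a1ap, both named after their values were seen. Slc25a25 fell by 0.47 on the log2 scale (adjusted p = 0.036), a call lost in 13 of 19 alternative settings (the second-number libraries alone among them), and shares exon sequence with Naif1 on the other strand, which fell by 0.71 (adjusted p = 0.011). Slc4a1ap encodes no carrier. It fell by 0.49 on the log2 scale (adjusted p = 0.025), a call lost in 6 of 19, both without the second-number libraries and with them alone among these.

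The last comparison tested whether the effect of injury differed between the subsets, and 2 of 162 members passed, both with a lower value in CD44high Tregs (1.23%, where 0.454% of all genes were called lower and 0.192% higher). At an unadjusted p under 0.05, 5 members had a higher effect in CD44high Tregs and 10 a lower one, with the share of all genes not counted. The difference, CD44high minus CD44low, was -1.33 ± 0.27 for Slc52a3 (adjusted p = 0.018 by edgeR) and -3.22 ± 0.68 for Slc15a3 (adjusted p = 0.023). The call of Slc15a3 was lost without uninjured CD44low library 4 (adjusted p = 0.051) and that of Slc52a3 without injured CD44high library 5 (adjusted p = 0.055). Slc52a3 fell in CD44high Tregs and was at 7.84 ± 1.81 and 10.3 ± 3.21 CPM in CD44low Tregs of uninjured and injured mice, which was not called. Slc15a3 was at 13.7 ± 1.69 and 14.0 ± 4.08 CPM in CD44high Tregs of uninjured and injured mice and higher after injury in CD44low Tregs. Without the second-number libraries the differences were -1.39 and -3.26, and with them alone -1.28 and -3.18. Slc2a9 had a difference of 1.61 ± 0.45 that did not pass (adjusted p = 0.11), but 2.32 without the second-number libraries (adjusted p = 0.0052).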

How the data were processed

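Bulk RNA-seq libraries were made from sorted Tregs with a SMART-Seq kit, and gene counts were obtained by the authors with STAR in the VIPER workflow. The authors deposited these as raw counts per gene and sample, without normalization and with replicates kept apart. The submitters' processing notes name STAR 2.5 and bcl2fastq 2.18 and list the builds mm9 and mm10 without saying which was used for the counts, so no gene coordinates were taken from the table. Neither the annotation nor the strand setting used in counting was stated. Reads carry no molecular identifiers, so counting intervals cover counting error only.

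Symbols of all 162 members matched GENCODE vM21, which gave exon lengths and exon overlaps (at least 50 bases). Counts were analysed in R 4.3.3 with edgeR 4.0.16: low genes were removed at a minimum count of 10, library sizes were scaled by TMM, and all 19 libraries were fitted together with a mean per group. Two-sided quasi-likelihood F-tests were adjusted after Benjamini and Hochberg across 11464 genes. CPM used the TMM-scaled library sizes. A call is an adjusted p under 0.05, and values after ± are SE for log2 changes and SD for CPM. Alternatives were DESeq2 1.42.0, RLE factors, no filter, the compared groups alone, a replicate block, library sets left out or summed, each library left out, and p under 1e-06 with a 2-fold change. The second-number libraries alone were added after seeing the data. Upstream windows were RefSeq's, with an entry for 123 of 162 members.

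The members, classes and companion lists were chosen with earlier results of these data known. Named genes were 31 well-known carriers (29 are members) and, per comparison and direction, the 8 called members of smallest p whose libraries did not overlap, and for the interaction up to 10 called members, 51 in all. A few genes that the rules name are not reported here. Figures were drawn with Python and matplotlib 3.10.9.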

Additional observations from a re-analysis of the deposited data

Results flagged for a closer look

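The effect of injury differed between the subsets for 2 members by the interaction test (edgeR, adjusted p under 0.05): the log2 difference, CD44high minus CD44low Tregs, was -1.33 for Slc52a3 and -3.22 for Slc15a3.

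Single libraries stood apart from their group by Dixon's test at its 95% level in 12 of 240 groups of values looked at (49 named members and the summed classes in 4 groups each), where chance flags about 1 in 20. In CD44high Tregs of uninjured mice Slc15a3 was low at 11.2 CPM in library 2, Slc24a3 low at 6.78 in library 3 and Slc20a1 high at 38.2 in library 5. In CD44high Tregs of injured mice Slc20a1 was high at 31.8 CPM in library 3, and library 4 was high for Slc11a2 at 62.2 CPM and for the summed vesicular and other carriers at 154 CPM, and low for summed nucleotide sugar carriers at 372 CPM. In CD44low Tregs of uninjured mice the summed amino acid carriers were high at 1774 CPM in library 1 and the summed sugar and organic acid carriers at 491 CPM in library 2. In CD44low Tregs of injured mice library 5_2 was low for Slc19a1 at 70.1 CPM and high for Slc26a10 at 8.10 CPM, and library 1_2 was low for Slc25a24 at 33.4 CPM.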

How the results depend on the processing

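No called result changed sign under any alternative that was run. Over single named members, 4807 alternative values kept their side of the threshold, 49 calls were lost and 39 gained. At p under 1e-06 with a 2-fold change the members called higher and lower in CD44high Tregs were 15 and 2 in uninjured and 13 and 3 in injured mice, and the injury comparisons and the interaction had 0 in each direction that had a call. In CD44high Tregs after injury, DESeq2 called 3 members higher and 7 lower, the compared groups alone 3 higher, the fit without the second-number libraries 2 and 7, and the fit with libraries summed 2 higher. In CD44low Tregs after injury, RLE factors gave 5 higher, DESeq2 6, the fit without the second-number libraries 5 higher and 13 lower, and the second-number libraries alone 3 lower. For the interaction, DESeq2 and the fit without the second-number libraries each called 1 member higher. The cause of these shifts was not tested. Shares over all genes were counted only in the edgeR fit of all 19 libraries, so counts of members from other fits have no background beside them.

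Leaving out each library in turn gave 39 to 46 members higher and 25 to 29 lower in uninjured mice, 37 to 42 and 21 to 32 in injured mice, 0 to 1 higher and 3 to 4 lower after injury in CD44high Tregs, 3 to 7 higher and 4 to 11 lower in CD44low Tregs, and 0 to 1 and 1 to 3 for the interaction. In CD44high Tregs 1 member was called higher without uninjured CD44high library 2 (Slc28a2) and another without library 3 (Slc43a1). The CD44low counts rose to 7 and 11 without injured library 5_2 and to 6 higher without uninjured library 5. The interaction of Slc15a3 was lost without uninjured CD44low library 4 (adjusted p = 0.051) and that of Slc52a3 without injured CD44high library 5 (adjusted p = 0.055), and 1 member had a higher effect in CD44high Tregs without uninjured CD44high library 3.

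With the first replicate number as a block, 1 member was higher in CD44low Tregs after injury. Whether the numbers pair samples of the same mouse was not settled. Of 26 same-numbered pairs across groups, 4 had deviations correlated over 0.1 (range -0.12 to 0.17), and 5 of 19 libraries correlated best with their own number. Those 4 pairs each joined CD44high and CD44low libraries of the same state, the only kind that could share a mouse. They were number 4 in uninjured mice (0.119) and 2 (0.167), 4 with 4_2 (0.101) and 5 (0.116) in injured mice. Other same-numbered pairs of this kind ran from -0.0537 to 0.0619. Injured CD44high library 3 and CD44low library 5_2 reached 0.41. At these depths, members near 10 counts per library have wide errors.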
